A study of Mus musculus with 6 samples.

Results

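The genes of early B cell development were examined in the liver of 14-day-old mice with and without miR-137. The set comprised 9 genes, Vpreb1, Vpreb3, Igll1, Ighm, Cd79a, Cd79b, Pax5, Ebf1 and Pou2af1, and every probe set annotated with exactly 1 gene symbol that was one of these names was taken. This gave 25 of 45037 probe sets and 9 of 18193 genes. RNA of single livers had been hybridised to Affymetrix mouse genome arrays, 3 of them from Mir137-/- mice and 3 from Mir137+/+ mice, all untreated and killed on postnatal day 14. The mutants were homozygous for a germline deletion of the Mir137 exons, made by Cre recombination in embryonic stem cells and bred by intercrossing heterozygotes, so miR-137 was absent from every tissue and not from liver alone. Values are log2 levels made by the authors, and every difference is Mir137-/- minus Mir137+/+ on that scale.

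B lymphocytes of the mouse are made in the liver before birth and in bone marrow afterwards, and the liver loses this role in early postnatal life. A B cell precursor first rearranges its immunoglobulin heavy chain gene with the RAG recombinase. The μ heavy chain encoded by Ighm is then tested by pairing with a surrogate light chain, assembled from the products of Vpreb1 or Vpreb2 and of Igll1 (λ5), and the pair reaches the surface with the signalling chains encoded by Cd79a and Cd79b as the pre-B cell receptor. The transcription factors E2A, EBF1 and PAX5 switch on these genes in sequence, and the interleukin 7 receptor keeps the precursors dividing. Mature B cells have lost the surrogate light chain and RAG, retain μ heavy chain, CD79A, CD79B and PAX5, and gain proteins such as CD20 (Ms4a1), CD22, CD21 (Cr2) and CXCR5.

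The sequences below show the microRNA that the mutants lack and the DNA just before the start sites of Vpreb1 and Igll1, which encode the surrogate light chain, and of their relative Vpreb3. The mature strand of miR-137 lies at chr3:118433901-118433923 on the plus strand of GRCm38.p6, and its seed, bases 2 to 8, is in capitals:
mmu-miR-137-3p: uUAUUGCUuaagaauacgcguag
Igll1 and Vpreb1 are neighbours on the minus strand of chromosome 16, 4415 bases apart, and Vpreb3 lies on the plus strand of chromosome 10. The gene record of Vpreb3 spans chr10:75943024-75949657, and the start used here lies inside it. The 250 bases upstream of each annotated start, from RefSeq on GRCm38.p6, are printed 5′ to 3′ along the gene, from chr16:16869256-16869505, chr16:16863986-16864235 and chr10:75948050-75948299, with motif matches in capitals:
Vpreb1: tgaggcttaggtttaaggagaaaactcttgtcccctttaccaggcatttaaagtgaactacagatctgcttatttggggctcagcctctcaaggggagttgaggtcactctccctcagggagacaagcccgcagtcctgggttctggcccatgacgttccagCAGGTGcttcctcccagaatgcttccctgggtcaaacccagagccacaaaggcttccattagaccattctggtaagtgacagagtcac
Igll1: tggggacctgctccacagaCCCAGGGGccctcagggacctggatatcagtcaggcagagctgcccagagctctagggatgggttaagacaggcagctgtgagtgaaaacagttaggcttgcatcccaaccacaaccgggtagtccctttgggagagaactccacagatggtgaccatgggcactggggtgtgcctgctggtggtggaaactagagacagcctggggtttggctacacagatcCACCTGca
Vpreb3: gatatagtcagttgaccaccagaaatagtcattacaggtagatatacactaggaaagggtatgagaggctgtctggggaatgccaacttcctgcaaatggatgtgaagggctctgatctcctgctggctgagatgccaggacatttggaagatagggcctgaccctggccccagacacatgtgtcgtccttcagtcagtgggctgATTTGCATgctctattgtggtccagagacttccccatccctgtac
The letters searched for, on both strands, were CAGGTG for an E2A-type E-box, CCCNNGGG for the EBF1 palindrome and ATTTGCAT for the octamer, which binds the POU factors that the product of Pou2af1 assists. No motif overlapped another. An E-box began 88 bases before the start of Vpreb1 and 8 bases before that of Igll1, the EBF1 palindrome 231 bases before the start of Igll1, and the octamer 45 bases before that of Vpreb3. Of 32851 mouse promoter windows of this length, 17.2% held the E-box, 11.8% the EBF1 palindrome and 1.6% the octamer. Among 8 windows of 7 members (Ebf1 has more than 1 start, and Cd79b and Ighm were not matched), the E-box was otherwise found only before Cd79a, and the other motifs nowhere else. A match describes the letters and does not show that a factor binds.

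Some arrays stood apart in ways the genotype labels do not name. The female transcript Xist, made by the inactive X chromosome, read 10.91 on Mir137+/+ replicate 2 and 10.81 on replicate 3, although the methods describe males, and the 4 remaining arrays gave 3.66 to 4.24. The Y-linked transcript Eif2s3y read 2.06 and 2.51 on those replicates and 8.46 to 8.62 on the 4 remaining arrays. By these transcripts Mir137+/+ replicates 2 and 3 were female, and replicate 1 and every mutant were male. Sex was therefore partly confounded with genotype. The microRNA itself was not analysed here, so its loss was not checked on these arrays. Transcripts of 10 skeletal muscle genes averaged 4.43 above the Mir137+/+ mean on Mir137-/- replicate 1, and 8 exocrine pancreas genes averaged 3.19 above it on Mir137-/- replicate 2 and 1.94 on Mir137+/+ replicate 2. The part of these differences in the results was not tested, and the counts of called genes without those arrays are given with the results below. The hepatocyte genes fitted the labelled tissue: 7 of them averaged 13.13 to 13.20 on the 6 arrays, at the top of the measured range, with a median difference of -0.04. So near the top of the range, a difference may be harder to see.

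Of the 9 members, 8 were lower in Mir137-/- liver and 1, Pax5, did not pass the test. Genes were called at an adjusted p below 0.05 (limma, Benjamini-Hochberg over all genes) and a fold above 1.5, on the brightest probe set of each gene. No member was higher. The median difference of the 9 was -1.06, against 0.00 for all genes, and 3.34% of all genes were called lower. Among their 25 probe sets, 11 were lower and 0 were higher, where 2.58% of all probe sets were called lower. On 12 of the 25, every Mir137-/- array lay below every Mir137+/+ array, as on 13.9% of all probe sets. The same held for 8 of the 9 genes and for 17.4% of all genes. Within the 8 called genes, Mir137+/+ replicate 3 gave the highest level of its genotype in all 8 and replicate 1 the lowest in 6, while Mir137-/- replicate 3 gave the lowest level of its genotype in 6. In a tissue extract, fewer cells of a type and less RNA in each cell cannot be told apart.

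**Figure D1:**
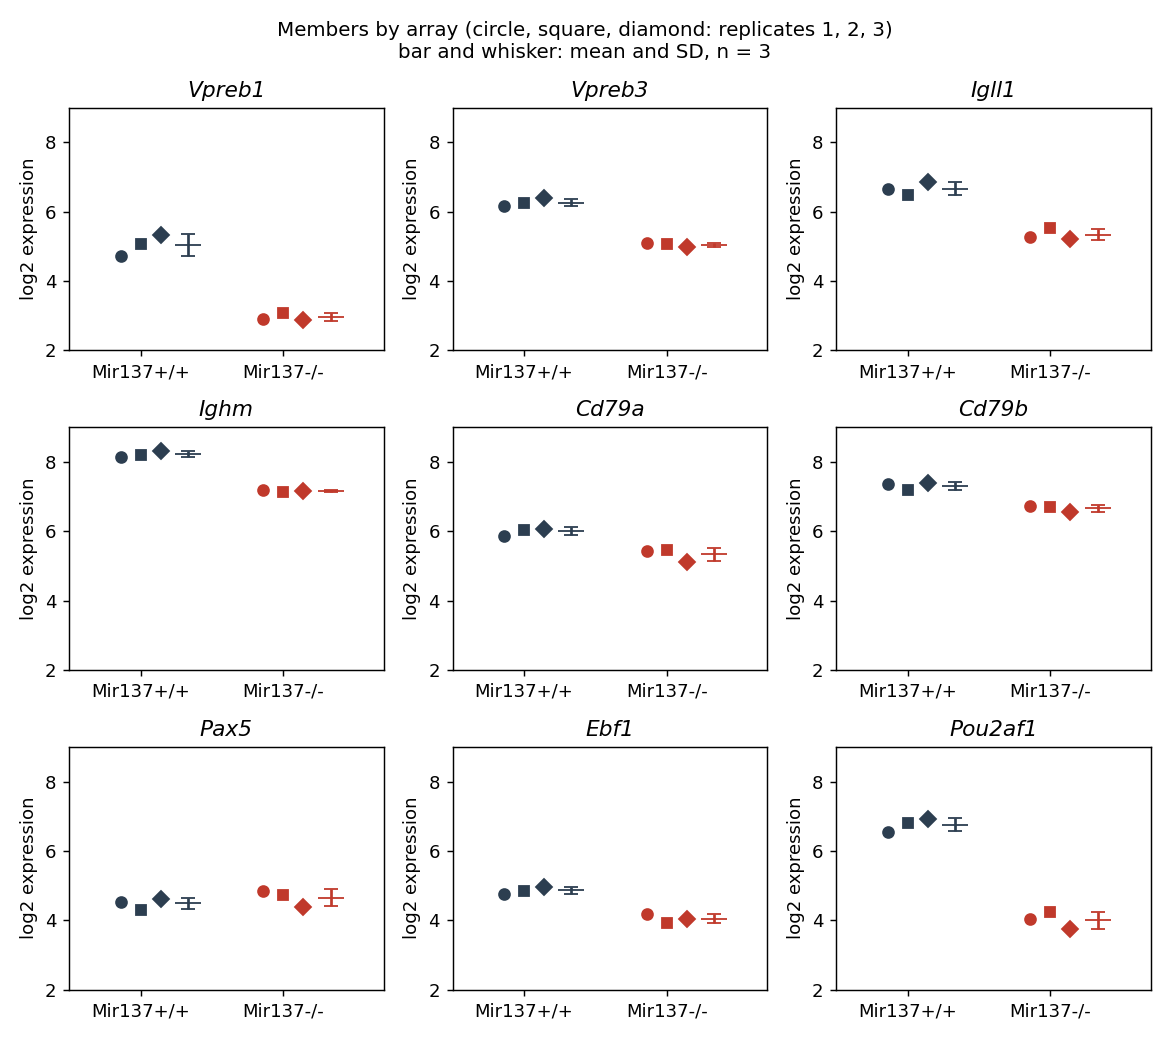
Log2 expression (y axis) of the brightest probe set of each of the 9 members on the 3 Mir137+/+ and 3 Mir137-/- arrays, with mean and SD. In 8 panels all Mir137-/- points lie below all Mir137+/+ points, with the widest gap for Pou2af1 (means 4.0 and 6.75), and in the Pax5 panel the groups overlap.

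Vpreb1 and Igll1, the genes of the surrogate light chain, and their relative Vpreb3 were lower in Mir137-/- liver. Vpreb1, which encodes the V-like part of the surrogate light chain, was at 2.91, 3.08 and 2.88 in Mir137-/- replicates 1 to 3 and at 4.71, 5.08 and 5.32 in Mir137+/+. The groups were well separated, and the difference was -2.08 (SE 0.15, n = 3 per genotype, adjusted p = 3.01e-04 over probe sets, limma). All 3 mutant values lay under the lower quartile of their array, which was between 3.4 and 3.47, so the signal there was among the dimmest on the array. Another probe set matches both Vpreb1 and its near-identical copy Vpreb2, elsewhere on chromosome 16, and fell outside the selection for that reason. It read 3.41, 3.18 and 3.50 against 4.07, 3.86 and 4.20, a difference of -0.68 (adjusted p = 0.0161, limma), and it cannot tell the 2 genes apart.

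Igll1, which encodes λ5, the constant-like part, had 2 probe sets that disagreed. The brighter one, whose name marks it as able to match other transcripts, was at 5.28, 5.53 and 5.20 in Mir137-/- and 6.64, 6.49 and 6.84 in Mir137+/+, a difference of -1.32 (SE 0.13, adjusted p = 9.42e-04, limma). The dimmer one was between 2.88 and 3.54 on all 6 arrays, mostly under the lower quartile, and differed by 0.03 (adjusted p = 0.944, limma). The call for Igll1 therefore rests on 1 probe set. Vpreb3, whose product associates with newly made μ chains inside precursor cells, read 5.09, 5.08 and 4.98 in Mir137-/- and 6.17, 6.24 and 6.38 in Mir137+/+. Its difference of -1.21 (SE 0.10, adjusted p = 4.32e-04, limma) came with groups that lay far apart.

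The receptor genes, which precursor and mature B cells share, were lower too, by less. Ighm, the μ heavy chain gene, had 11 probe sets. On the brightest the levels were 7.19, 7.13 and 7.16 in Mir137-/- and 8.15, 8.21 and 8.31 in Mir137+/+, a difference of -1.06 (SE 0.09, adjusted p = 5.56e-04, limma). A further one gave 7.22, 7.24 and 7.13 against 8.09, 8.12 and 8.13, a difference of -0.92 (adjusted p = 9.41e-04, limma). The other 9 lay between 2.69 and 5.76, had overlapping groups and differed by -0.21 to 0.38, and none was called. Immunoglobulin genes share sequence, so which transcripts each of these probe sets reads is uncertain.

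Cd79a, the first of the signalling chains, was at 5.43, 5.46 and 5.12 in Mir137-/- and 5.87, 6.05 and 6.07 in Mir137+/+. The difference was -0.66 (SE 0.12, adjusted p = 0.0151, limma), a fold of 1.58, only just past the threshold. The call was lost on the fold when Mir137-/- replicate 3 was left out (-0.55, adjusted p = 0.0215, limma). It was lost on the adjusted p without Mir137+/+ replicate 2 (-0.63, adjusted p = 0.0501) or replicate 3 (-0.62, adjusted p = 0.0513). The methods' t-test did not call Cd79a either (adjusted p = 0.0724). Cd79b, its partner, read 6.74, 6.69 and 6.55 against 7.35, 7.18 and 7.40, a difference of -0.65 (SE 0.10, adjusted p = 0.0084, limma). For both genes the groups were separate, though the nearest arrays of opposite genotype were closer than for Vpreb1, Vpreb3 and the brighter probe set of Igll1.

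The transcriptional regulators of the set differed among themselves. Pou2af1, a coactivator (OCA-B) that joins POU factors on immunoglobulin promoters, had the largest difference of the 9 members. It was at 4.04, 4.23 and 3.74 in Mir137-/- and 6.54, 6.80 and 6.91 in Mir137+/+, a difference of -2.75 (SE 0.15, adjusted p = 8.06e-05, limma), a fold of 6.71. Ebf1, the factor that commits progenitors to the B lineage, was lower on 3 of its 5 probe sets. The one with the largest difference gave 3.62, 3.41 and 3.17 against 4.81, 4.96 and 5.05 (-1.54, adjusted p = 5.29e-04, limma), the next gave 3.51, 3.77 and 3.67 against 4.79, 4.86 and 5.17 (-1.29), and the brightest gave 4.19, 3.91 and 4.05 against 4.76, 4.85 and 4.97 (-0.81, adjusted p = 0.00382). The remaining probe sets of Ebf1 differed by -0.32 with separate groups (adjusted p = 0.135, limma) and by -0.09 with overlapping groups. EBF1 is also made in stromal and fat cells, so its transcript does not mark B cells alone.

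Pax5, the factor that fixes B cell identity, gave values of 4.84, 4.74 and 4.37 in Mir137-/- and 4.54, 4.31 and 4.61 in Mir137+/+ on its brighter probe set. The groups overlapped, and the difference was 0.16 with a 95% interval of the fit from -0.17 to 0.49. Its dimmer probe set lay between 3.23 and 3.45 on all arrays, with a difference of -0.04 (interval -0.27 to 0.20). That probe set was near or under the lower quartile of the arrays, so a small change in Pax5 would not have been detectable there. The brighter one, at 4.31 to 4.84, was under the array medians of 4.88 to 4.91. A fall would have been harder to see there too.

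**Figure D2:**
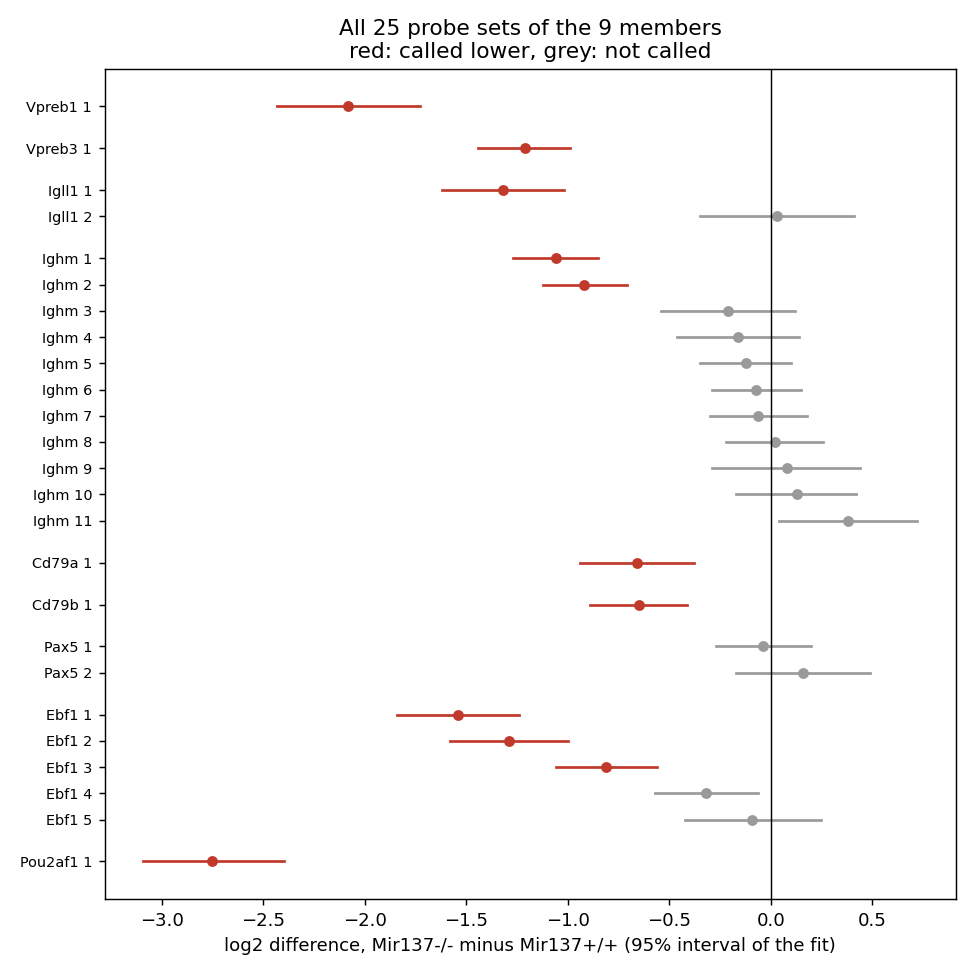
Log2 difference (x axis, Mir137-/- minus Mir137+/+) of all 25 probe sets of the 9 members, numbered within each gene from the lowest difference up, with the 95% interval of the limma fit. The 11 called probe sets, in red, are all left of 0, while 9 of 11 for Ighm and both for Pax5 lie near 0.

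For the 8 called members the separation of the groups already placed the mutants below the 1 Mir137+/+ array without Xist. Fewer of them were called without the other 2 Mir137+/+ arrays. Set against Mir137+/+ replicate 1 alone, the mean of the mutants differed by -2.54 for Pou2af1, -1.75 for Vpreb1, -1.30 for Igll1, -1.12 for Vpreb3, -0.99 for Ighm, -0.71 for Ebf1, -0.69 for Cd79b and -0.53 for Cd79a. Without those 2 arrays 3 genes remained called (Vpreb1, Vpreb3 and Pou2af1), and with sex as a term 5 did (these and Igll1 and Ighm). Over all genes the calls lower fell from 607 to 73 and to 259 in the same fits, each of which leaves 1 Mir137+/+ array to stand for its genotype. Leaving out Mir137-/- replicate 1, with its muscle transcripts, kept the count at 8, and leaving out the pancreas arrays gave 7, with Cd79a at -0.69 (adjusted p = 0.0773, limma). Over all genes the fit without the pancreas arrays, which also gave the list counts below, called 390 lower, against 607 with all arrays.

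The comparison of precursor with mature markers asked whether genes of both stages differed alike. A list of 11 measured genes of the precursor stage had 5 lower and 0 higher, with a median of -0.52. A list of 15 measured genes of the mature stage had 0 lower and 1 higher, with a median of 0.00 and a range from -0.42 to 0.60. Of the mature genes, 3 (Fcer2a, Cr2 and Cxcr5) lay under the lower quartile on every Mir137+/+ array, where a fall could hardly be seen, and of the 11 left without the dimmest probe sets 0 were called lower. Across all genes 3.34% were called lower and 2.34% higher. Without the Mir137+/+ arrays that carried Xist the precursor list had 2 genes called and the mature list 0, and without the pancreas arrays 5 and 0. At an unadjusted p under 0.05 (limma), 3 mature genes were lower and 4 higher, and the methods' t-test also called 0 lower.

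Among precursor genes beyond the members, Rag1, a subunit of the recombinase that cuts immunoglobulin genes, was at 2.44, 3.25 and 2.61 in Mir137-/- and 5.02, 5.54 and 5.57 in Mir137+/+, a difference of -2.61 (SE 0.23, adjusted p = 8.66e-04 over genes, limma). Its mutant values, like those of Vpreb1, were all under the lower quartile of the arrays. Il7r, the interleukin 7 receptor chain that T cells also carry, read 3.99, 4.56 and 3.97 against 5.75, 6.09 and 6.17, a difference of -1.83 (SE 0.18, adjusted p = 0.00128, limma). Dntt, the terminal transferase that adds bases at heavy chain joins, differed by -0.52 (adjusted p = 0.0133, limma), under the fold needed for a call, while its dimmer probe set was called at -0.67. Rag2 differed by -0.28, Lef1 by -0.22, Bst1 by -0.30, Arpp21 by 0.15 and Akap12 by 0.41, and none of these passed. So of the 8 precursor genes that are not members, 2 were called, with a median of -0.29.

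On each array, the mean deviation of the precursor list from its Mir137+/+ mean was set against that of the mature list. The precursor list stood at -0.97, -0.72 and -1.0 in Mir137-/- replicates 1 to 3 and the mature list at -0.01, -0.01 and 0.00. The gap between the lists was -0.96, -0.71 and -1.0 in Mir137-/- and -0.07, 0.04 and 0.03 in Mir137+/+. The genotypes differed in that gap by -0.89, with a pooled SD between arrays of 0.12. With the members taken out of the precursor list, the gap was -0.74, -0.45 and -0.76 against -0.05, 0.06 and -0.02, a difference of -0.65. That mean leaned on Rag1 (-2.61) and Il7r (-1.83), by far the largest differences of the remaining genes, whose median was -0.29. These are descriptions with no test, since the lists were chosen with results of these arrays known.

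**Figure D3:**
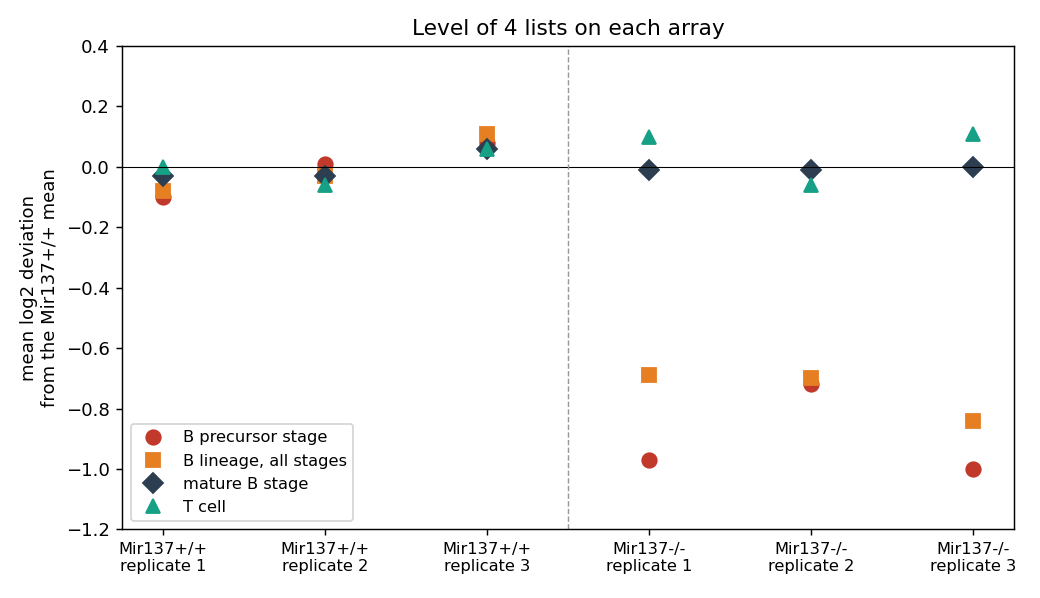
Mean log2 deviation from the Mir137+/+ mean (y axis) of 4 gene lists on each of the 6 arrays (x axis). The precursor list lies between -1.0 and -0.72 on the Mir137-/- arrays and the list of genes of all B cell stages between -0.84 and -0.69, whereas the mature and T cell lists stay between -0.06 and 0.11 on every array.

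The mature markers differed by little between genotypes. Ms4a1, which encodes CD20, was at 6.33, 6.23 and 6.36 in Mir137-/- and 5.93, 6.03 and 5.99 in Mir137+/+, a difference of 0.32 (adjusted p = 0.0436, limma) under the fold of a call. Bank1, a scaffold of B cell receptor signalling, differed by 0.41 (adjusted p = 0.0248, limma), also under the fold. Cxcr5, the chemokine receptor that guides B cells into follicles, was called higher by 0.60, from 3.32, 3.11 and 3.22 to 3.62, 3.96 and 3.87 (adjusted p = 0.0148, limma), at levels around the lower quartile. That call was absent with quantile normalization, with the methods' t-test, without the dimmest probe sets, and with replicate 2 or 3 of either genotype left out. Cd22, an inhibitory receptor of B cells, gave 6.50, 6.78 and 6.79 against 6.63, 6.91 and 7.11, so its groups overlapped (-0.19). The largest negative differences were -0.42 for Siglecg, -0.38 for H2-Ob and -0.38 for Cd37, with adjusted p of 0.073, 0.062 and 0.0653 (limma). Beyond the brightest probe sets, a dimmer one of Zfp318 was called lower at -0.88, while its brightest differed by 0.09.

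Genes that B cells express at all stages, 16 measured with the 6 receptor and factor members among them, had 10 lower and 0 higher and a median of -0.72. Beyond the members these were Cd24a, a surface glycoprotein abundant on precursors and also made by red cell precursors and epithelia, with 7.19, 7.55 and 7.39 against 9.02, 9.23 and 9.30 (-1.81, adjusted p = 3.31e-04, limma), the receptor adaptor Blnk (-0.97), the Ets factor Spib (-0.98), the Fc receptor-like Fcrla (-1.08) and the inhibitory receptor Cd72 (-0.78). Blk (-0.27), Btk (-0.33), Pou2f2 (-0.08), Ikzf3 (0.13) and Bcl11a (0.04) did not pass. A dimmer probe set of Bcl11a was called at -1.13, with Mir137+/+ values of 3.13, 4.33 and 4.17 that spread widely. The list had 2 genes called (Cd24a and Pou2af1) without the Mir137+/+ arrays that carried Xist and 6 without the pancreas arrays.

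**Figure D4:**
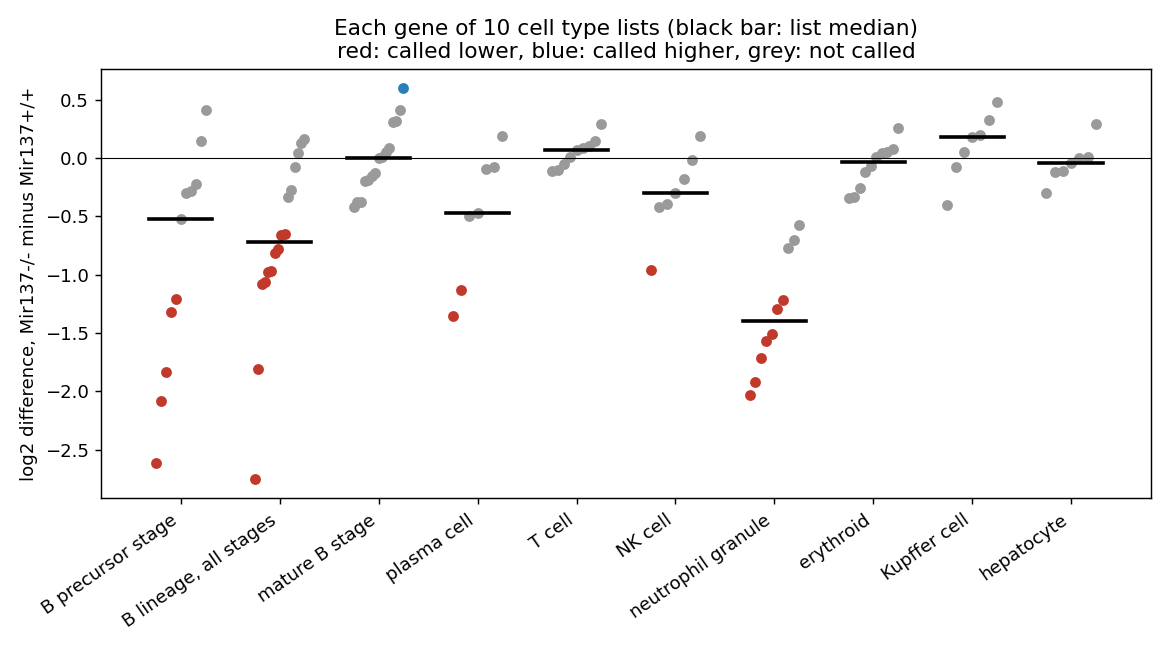
Log2 difference (y axis) of each measured gene of 10 cell type lists, with the list median as a black bar and called genes in colour. The precursor, all-stage and neutrophil granule lists have medians of -0.52, -0.72 and -1.40, and the mature B stage, T cell, erythroid, Kupffer cell and hepatocyte lists have medians between -0.04 and 0.18. The plasma cell and NK cell lists lie between, with medians of -0.47 and -0.30.

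Genes that control the lineage were called in part. Of 16 transcription factors of B cell development, 5 were lower and 0 higher, with a median of -0.16. Myb, which blood progenitors of many kinds need, was at 4.09, 4.21 and 3.60 in Mir137-/- and 6.80, 7.20 and 7.24 in Mir137+/+, a difference of -3.11 (adjusted p = 2.11e-04, limma) that exceeded that of every member. Ikzf1 (Ikaros), which opens the lymphoid programme, gave 5.92, 6.20 and 6.05 against 6.85, 6.86 and 6.90 (-0.81, adjusted p = 0.0021, limma), and Irf4, active in pre-B and plasma cells, differed by -1.35 (adjusted p = 0.00307). Tcf3, which encodes E2A, differed by -0.16, Foxo1 by -0.15 and Spi1 by -0.01, and none of them passed. Without the Xist arrays Myb was the 1 factor called, and without the pancreas arrays 5 were.

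Of 13 measured genes for interleukin 7 and other signals of the niche, 3 were lower and 0 higher, with a median of -0.24. Besides Il7r these were Cxcr4, the receptor that holds precursors near their niche, with 4.50, 4.67 and 4.15 against 5.81, 5.88 and 6.40 (-1.59, adjusted p = 0.00211, limma), and Il7, the cytokine itself. Il7 was dim, at 3.22, 3.08 and 2.79 against 3.42, 3.56 and 3.89 (-0.59, adjusted p = 0.045), and its fold of 1.51 barely passed. The ligand Cxcl12 was at almost equal levels in both genotypes (-0.06), and the cytokine receptors Flt3 and Kit each differed by -0.24 without passing. Of 9 genes that carry the signal of the pre-B cell receptor, Blnk was the 1 lower gene and the median was -0.28. Vav1 differed by -0.51 (adjusted p = 0.0258, limma) and Syk by -0.40 (adjusted p = 0.0533), both under the fold. Of 7 plasma cell genes 2 were lower, Irf4 and Mzb1 (-1.13), an endoplasmic reticulum chaperone that B cells also make, while Jchain differed by -0.47 and Sdc1 by -0.50. Sdc1 read 9.83 to 10.54 on the arrays, far above the rest of that list, so its source was uncertain. Of light chains and further heavy chains 3 were measured and 0 called, with differences from -0.23 to 0.09. Their mean level was 3.87 to 4.12 per array, under the array medians, so a fall would have been harder to see. Without the Xist arrays 0 genes of the niche, receptor signal and plasma cell lists were called by limma, and without the pancreas arrays 2, 0 and 1 were.

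Lists of other blood and liver cells were read the same way. Of 9 T cell genes none was called in either direction by limma, with a median of 0.07, and 1 was higher at an unadjusted p under 0.05. They averaged 4.44 to 4.61 per array, under the array medians of 4.88 to 4.91, so a fall would have been harder to see. The erythroid genes averaged 4.67 to 4.87, also under the medians. None of 10 erythroid genes (median -0.03) and none of 7 Kupffer cell genes (0.18) was called. At an unadjusted p under 0.05 (limma), 1 was lower in each and 2 Kupffer cell genes were higher. In contrast, 7 of 10 neutrophil granule genes were lower, with a median of -1.40. Ngp, a protein of neutrophil granules, was at 7.19, 8.10 and 7.48 in Mir137-/- and 9.41, 9.83 and 9.61 in Mir137+/+ (-2.03, adjusted p = 0.00172, limma), and Mpo, the myeloperoxidase of young granulocytes, differed by -1.92. The mean deviation of that list was -1.50, -1.06 and -1.43 on the mutant arrays and -0.28, 0.08 and 0.21 on the others, and its part in the B lineage differences was not tested. One gene each was lower among NK cell (Gzma, -0.96), megakaryocyte (Ppbp, -2.44), plasmacytoid dendritic cell (Irf7, -0.77), stem and progenitor (Myb) and pan-leukocyte genes (Coro1a, -0.69), and the pan-leukocyte marker Ptprc (CD45) differed by -0.24 without passing. The medians of these lists were, in the same order, -0.30, -0.15, 0.07, -0.03 and -0.21. Without the Xist arrays 0 of the 10 neutrophil granule genes were called and of the 5 single genes Myb and Ppbp were, while without the pancreas arrays 7 neutrophil genes were and Irf7 and Coro1a were not. None of 11 cell division genes was called (limma, median -0.11, 1 lower at an unadjusted p under 0.05).

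Genes whose levels followed Vpreb1, Vpreb3 and Igll1 were ranked with the members left out. Among 1262 genes with a range of at least 1 over the 6 arrays, the highest Pearson correlations with the mean of those 3 were those of Zmat1 (0.997), Ebp (0.997), Apoc3 (0.996), Orm1 (0.996) and Prodh (0.995), all lower in Mir137-/-. Ebp is an enzyme of cholesterol synthesis, Apoc3 an apolipoprotein, Orm1 an acute phase protein and Prodh an enzyme of proline breakdown. These values rest on 6 arrays of 2 genotypes that the genes separate. Within the genotypes the correlations were 0.90 for Zmat1, 0.90 for Ebp, 0.96 for Apoc3, 0.84 for Orm1 and 0.91 for Prodh. Because these genes were picked for their correlation over the same 6 arrays, that choice itself favours high values within genotypes. The members were not picked by this correlation, so the values within genotypes cannot rank the members against these genes. Of the members outside the reference, Pou2af1 correlated with it at 0.997 (0.86 within genotypes), as high as the first of these genes, Ighm at 0.994 (0.68), Cd79b at 0.974 (0.49), Ebf1 at 0.968 (0.24), Cd79a at 0.962 (0.70) and Pax5 at -0.364 (0.48).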

How the data were processed

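Liver RNA of 3 Mir137-/- and 3 Mir137+/+ mice had been hybridised to Affymetrix mouse genome arrays, 1 mouse per array, and groups follow the genotype label. The authors deposited 1 log2 level per probe set and array (1.22 to 13.79, array medians 4.88 to 4.91). The methods name RMA with a baseline-to-mean step and the labels GCRMA without a version, which treat dim probes differently. Methods and labels also give different amounts of starting RNA. The values were used without further normalization, had no detection calls, and their precision was limited by the number of arrays.

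After leaving out 64 control probe sets, 45037 were tested with limma (version 3.58.1, R version 4.3.3, lmFit and eBayes, no covariate) for Mir137-/- minus Mir137+/+. The platform annotation gave 34945 of them 1 gene symbol, 932 several and 9160 none, and symbols were updated to the RefSeq table of GRCm38.p6. Each of the 18193 genes was represented by its brightest probe set, averaged over the 6 arrays. A call needed a Benjamini-Hochberg adjusted p below 0.05 over all probe sets or genes and a fold above 1.5. The p values are two-sided. The fit was tested on simulated data.

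The members, the gene lists and the tests were chosen with earlier results of these data known, so no test was run over a list. Named genes were the members, the called genes and largest differences of the B lineage lists, markers of other cells beside a result, and the 5 genes nearest in pattern. Genes named from dimmer probe sets, and further examples, were chosen after their values were seen. The alternatives were the methods' t-test (Student, with Benjamini-Hochberg), no fold threshold, treat, eBayes with trend and robust, quantile normalization, median centring, dropping the dimmest 40% of probe sets, keeping only those not named _s_at, _x_at or _a_at, the mean of a gene's probe sets, the replicate number as a block, and leaving out each array in turn. Sex read from Xist as a term, and leaving out the Xist or the pancreas arrays, were chosen after seeing the data.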

Additional observations from a re-analysis of the deposited data

How the results depend on the processing

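With 3 arrays per genotype and no detection calls, small differences of dim probe sets were beyond these data. With the methods' t-test, 8 member probe sets and 7 member genes were called, and 284 of all genes were called lower. Under treat, which tests against the 1.5-fold threshold itself, 6 member probe sets and 5 member genes were called. No share of all probe sets is given for the alternative fits. A count over all genes is also missing for treat, the probe set filters, the averaged probe sets and single arrays left out. Those member counts therefore have no background beside them. Without the dimmest 40% of probe sets, Vpreb1 dropped out, 3 of 6 precursor genes still measured were called, and the gap between precursor and mature genes was -0.77. Without those named _s_at, _x_at or _a_at, 7 of 16 member probe sets were called, Ighm was at -0.06 (adjusted p = 0.762) and Igll1 turned to 0.03 (adjusted p = 0.938), because only its dimmer probe set was left. When each gene's probe sets were averaged, Ighm was at -0.18 (adjusted p = 0.143). With sex as a term 5 member genes were called. Without the Mir137+/+ arrays with Xist, 4 member probe sets, 3 member genes and 2 precursor genes were called, and Igll1 (-1.30, adjusted p = 0.0537) and Ighm (-0.99, adjusted p = 0.0539) missed the threshold (limma in each case). Both of these fits assume that the lone Mir137+/+ array varies like the others. Leaving out each array in turn gave 10 to 11 member probe sets, 7 to 8 member genes, 5 to 6 precursor genes and 0 mature genes called lower, and a gap of -0.98 to -0.84. Replicate numbers did not pair the arrays (correlations of deviations 0.081, 0.211 and 0.0044). With the replicate number as a block, 11 member probe sets, 8 member genes and 5 precursor genes were called, no member call changed, and the calls over all genes were 588 lower and 411 higher, against 607 and 425. Of the counts and the gap, 79 values stayed within the set limits of the reported one and 9, given above, did not. The limits were a factor of 1.5 for counts called lower and the pooled SD for the gap. The mature list had 0 genes called lower in every setting, so all its counts were among those that stayed. Its call of Cxcr5 as higher, lost in several settings, was not part of this tally. Of the member differences, 151 kept their direction and their side of the threshold, 18 lost the call and 1, Igll1, changed sign.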

Other observations

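Probe sets annotated with Ighm and 1 or more other immunoglobulin genes were outside the selection. There were 4 of them, all between 1.81 and 3.44 on the 6 arrays, with differences from -0.12 to 0.09 and overlapping groups, and none was called by limma.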
